A study of Mus musculus with 7 samples.

Results

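The 10 chemokine genes described here were measured among 32285 genes in the count tables of mouse utricle explants that were damaged with gentamicin. The genes were taken by name from a list that was made with earlier results of these data known, and are Cxcl9, Cxcl10 and Ccl5, which interferon induces, and Cxcl1, Cxcl2, Cxcl5, Ccl2, Ccl7, Ccl12 and Cxcl12. Every one of the 10 had a row in the tables and all 10 passed the filter on low counts. The utricle is a vestibular organ of the inner ear, and gentamicin is an aminoglycoside antibiotic that kills its sensory hair cells. All explants came from wild-type (WT) mice at postnatal day 2 and received 2 mM gentamicin for 24 h, and every library was made from 12 pooled utricles. The Gent+Fos OE group (n = 4) also received AAV-PHP.eB Fos, a virus that carries Fos behind the CMV promoter, which is active in many cell types, for 48 h. The Gent group (n = 3) is labelled with gentamicin alone. The study describes a control AAV (AAV-EGFP) in its imaging experiments and a control AAV group in one legend on the sequencing data, but the labels of the Gent libraries name no virus, and the deposited names of their counts hold the letters sh, which can stand for a short hairpin RNA. Which virus they received, if any, is not settled, and every fold change here rests on the labels. If none, the virus itself and Fos cannot be told apart in this comparison. By the study's account the explants were collected 5 days after injury, and its methods state 3 replicates per condition where the labels list 4 and 3.

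Chemokines are small secreted proteins that direct the migration of leukocytes through G protein-coupled receptors on the target cell. CXCL9 and CXCL10 attract activated T cells and NK cells through CXCR3 and are transcribed in response to interferon through IRF factors among others, and CCL5, which attracts T cells and monocytes, is induced by IRF factors and NF-kappaB. CXCL1, CXCL2 and CXCL5 attract neutrophils through CXCR2 and are classical NF-kappaB targets. CCL2, CCL7 and CCL12 attract monocytes through CCR2, and CXCL12 is a homeostatic chemokine of stromal cells that acts through CXCR4. In the inner ear, resident macrophages and cells recruited from blood take part in clearing damaged hair cells. Explants have no blood supply, so cells in these libraries were in the tissue when it was dissected or arose in culture.

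The libraries held 27879889 to 34335214 counts, and 20254 to 21623 genes had a count in each. The overexpressed gene, Fos (ENSMUSG00000021250), was measured at 151, 151, 167 and 149 CPM in Gent+Fos OE replicates 1 to 4 and at 39.5, 40.6 and 34.6 CPM in Gent replicates 1 to 3. CPM is the TMM-normalized count scaled to library size, and the log2 fold change of Fos was 2.01 (SE 0.13, edgeR adjusted p = 0.000142). These counts do not separate the mouse gene from the virus. The dependence of counts on gene length set Gent replicate 2 apart (Spearman rho -0.496 across genes, against -0.221 to 0.325 in the others). Across genes, the log2 fold change was also related to gene length (rho 0.378, and 0.189 without Gent replicate 2), so shorter genes tended to lower values in Gent+Fos OE. Every chemokine gene here except Cxcl12 is shorter than the median tested gene of 4084 bp, so a length correction was tried as an alternative. The defining markers of hair cells and supporting cells were present, with summed levels of 548 to 804 CPM and 1959 to 3488 CPM, and macrophage markers summed to 3323 to 7417 CPM.

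All 10 chemokine genes had a negative log2 fold change, that is, less RNA in Gent+Fos OE than in Gent. Of the 10, 4 fell by the test across all genes: Ccl5, Cxcl10, Ccl12 and Cxcl5. A gene was called at an adjusted p under 0.01 in edgeR's quasi-likelihood test and an absolute log2 fold change over 0.25, and 0.280% of the 17155 tested genes were called lower and 0.134% higher. An unadjusted p under 0.05 with a lower value was found for 10 of the 10, against 13.4% of tested genes (11.1% for a higher value). The values of the groups did not overlap for 7 of the 10, in each case with Gent+Fos OE below Gent, against 12.2% of tested genes (11.3% for Gent+Fos OE above Gent). With DESeq2 at the same limits, 6 of the 10 were called lower, the 4 above with Cxcl2 and Cxcl12, where 1.73% of the genes it tested were called lower and 1.44% higher. The median log2 fold change of the 10 was -1.25, and that of all tested genes was 0.00. Ranked by p over the 17155 genes, Ccl5 was at place 7, Cxcl10 at 10, Ccl12 at 21 and Cxcl5 at 25, whereas Cxcl1, Cxcl9 and Ccl7 were at 2382, 2599 and 3577. In bulk libraries, fewer cells of a type and less RNA per cell cannot be told apart.

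**Figure D1:**
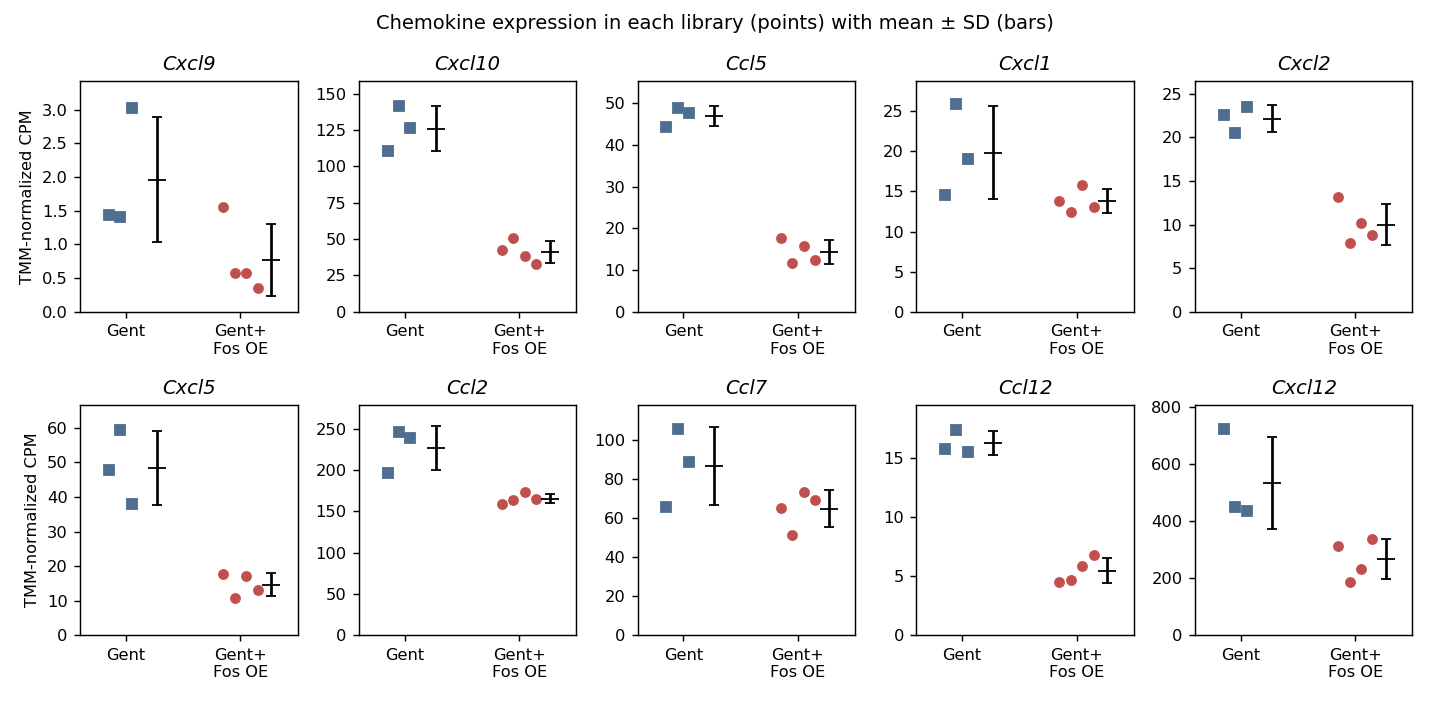
Each panel plots the TMM-normalized CPM of 1 chemokine gene in the 3 Gent libraries (squares) and the 4 Gent+Fos OE libraries (circles), with the mean ± SD of each group as a bar and every axis starting at 0. The groups do not overlap for Cxcl10, Ccl5, Cxcl2, Cxcl5, Ccl2, Ccl12 and Cxcl12, and they overlap for Cxcl9, Cxcl1 and Ccl7.

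Of the 3 interferon-induced genes, Cxcl10 and Ccl5 fell and Cxcl9 did not pass the test. Cxcl10 (ENSMUSG00000034855, mm10 chr5:92346638-92348889, minus strand) had more motif matches before its start than any of the 6 genes with a promoter window, so the 250 bases upstream of its RefSeq start are shown, on GRCm38.p6, which is mm10 (chr5:92348890-92349139, minus strand). Capitals mark, from 5′ to 3′, the ISRE core, a kappaB motif, 2 overlapping kappaB motifs and an AP-1 motif.
Cxcl10: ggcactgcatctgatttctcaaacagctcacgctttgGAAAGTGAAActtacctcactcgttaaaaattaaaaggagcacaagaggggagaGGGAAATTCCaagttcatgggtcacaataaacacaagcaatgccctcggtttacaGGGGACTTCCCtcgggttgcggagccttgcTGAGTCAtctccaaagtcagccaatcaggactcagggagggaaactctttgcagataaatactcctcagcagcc
The ISRE core, the letters that IRF factors bind, was searched as 2 copies of GAAA set 2 bases apart, AP-1, bound by Fos and Jun dimers, as TGACTCA or TGAGTCA, and the kappaB motif of NF-kappaB by its usual degenerate form, all on both strands. In Cxcl10 they lay at -213 to -204 (ISRE core), -159 to -150 and -104 to -94 (kappaB) and -74 to -68 (AP-1) from the start. Of 32851 promoter windows of the same length, 2.98% held the ISRE core, 7.25% a kappaB motif and 4.46% an AP-1 motif. A match of letters is a description and not a measured binding site.

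Cxcl10 was measured at 42.7, 50.8, 38.1 and 33.15 CPM in Gent+Fos OE replicates 1 to 4 and at 110.3, 141.4 and 126.1 CPM in Gent replicates 1 to 3. The highest Gent+Fos OE library lay below the lowest Gent library by more than the spread within either group. Gent+Fos OE averaged 41.2 ± 7.52 CPM (SD, n = 4), against 125.9 ± 15.5 CPM for Gent (SD, n = 3). This is a log2 fold change of -1.61 (SE 0.16, 95% CI -1.97 to -1.26) or 3.06-fold lower, with an edgeR adjusted p of 0.00152. The exact permutation test over all 35 assignments of the libraries to the groups gave p = 0.0286 (two-sided), the smallest p it can give here. Without Gent+Fos OE replicate 3 the adjusted p was 0.0168 at a log2 fold change of -1.58. The gene shares 5.91% of its exonic bases with Art3, and the counting used no strand.

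Ccl5 (ENSMUSG00000035042, chr11:83525778-83530518, minus strand), which encodes RANTES, had 17.7, 11.6, 15.7 and 12.4 CPM in the Gent+Fos OE replicates and 44.2, 48.8 and 47.7 CPM in the Gent replicates. The Gent libraries were close to each other, and the Gent+Fos OE libraries were all well below them. Gent+Fos OE averaged 14.4 ± 2.85 CPM (SD, n = 4), against 46.9 ± 2.39 CPM for Gent (SD, n = 3), and the log2 fold change was -1.71 (SE 0.16, 95% CI -2.07 to -1.35), 3.27-fold lower, with an edgeR adjusted p of 0.0014. This was the smallest p among the 10 chemokine genes. Without Gent+Fos OE replicate 3 the adjusted p was 0.0117.

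Cxcl9 (ENSMUSG00000029417, chr5:92321347-92328079, minus strand) was the gene with the fewest reads, 48, 19, 18 and 10 counts in Gent+Fos OE and 42, 44 and 105 in Gent. In CPM these were 1.56, 0.582, 0.570 and 0.357, against 1.44, 1.41 and 3.03. Gent+Fos OE replicate 1 lay above Gent replicates 1 and 2, so the groups overlapped, and Gent replicate 3 was far above the rest. Its log2 fold change was -1.35 (SE 0.51, 95% CI -2.48 to -0.22), with an edgeR adjusted p of 0.158 and an exact permutation p of 0.114. The value was -0.89 without Gent replicate 3 and -1.96 without Gent+Fos OE replicate 1, so single libraries decided its size. No letters of the 3 motifs above, nor of the GAS motif of interferon-gamma responses (TTC and GAA set 3 bases apart, in 7.02% of windows), were in the 250 bases before its start. Cxcl11, the third ligand of CXCR3, had no matched row in the count tables and was not analysed here.

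The ligands of CXCR2 split. Cxcl5 fell, Cxcl2 missed the limit narrowly, and Cxcl1 was further from it. Cxcl1 (ENSMUSG00000029380, chr5:90891241-90893115, plus strand) and Cxcl2 (ENSMUSG00000058427, chr5:90903871-90905938, plus strand) lie side by side, and their upstream bases are shown to compare them (GRCm38.p6, chr5:90890995-90891244 and chr5:90903649-90903898, plus strand). Capitals mark the kappaB letters, which are the same 11 bases in both.
Cxcl1: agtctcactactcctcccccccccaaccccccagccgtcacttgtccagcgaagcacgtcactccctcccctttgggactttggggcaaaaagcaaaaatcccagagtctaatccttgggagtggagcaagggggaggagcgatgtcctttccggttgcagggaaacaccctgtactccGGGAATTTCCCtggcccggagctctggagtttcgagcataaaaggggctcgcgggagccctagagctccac
Cxcl2: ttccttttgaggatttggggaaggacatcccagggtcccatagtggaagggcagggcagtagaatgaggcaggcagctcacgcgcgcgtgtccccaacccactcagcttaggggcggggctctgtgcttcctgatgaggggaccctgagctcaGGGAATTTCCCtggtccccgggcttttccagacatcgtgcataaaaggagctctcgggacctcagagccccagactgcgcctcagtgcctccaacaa
These letters lay at -71 to -61 in Cxcl1 and at -97 to -87 in Cxcl2 from the RefSeq start. Neither window held the ISRE core, GAS or AP-1 letters.

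Cxcl5 (ENSMUSG00000029371, chr5:90759360-90761624, plus strand) was measured at 17.7, 10.7, 17.1 and 13.0 CPM in Gent+Fos OE and at 47.85, 59.3 and 38.1 CPM in Gent. Both groups varied, but the lowest Gent library was still well above the highest Gent+Fos OE library. Gent+Fos OE averaged 14.6 ± 3.33 CPM (SD, n = 4), against 48.4 ± 10.6 CPM for Gent (SD, n = 3), and the log2 fold change was -1.73 (SE 0.21, 95% CI -2.18 to -1.27), 3.31-fold lower, with an edgeR adjusted p of 0.00316. It was the most negative log2 fold change among the 10 genes, although its interval overlaps those of Ccl5, Cxcl10 and Ccl12. The adjusted p was 0.0115, 0.0168 and 0.0145 without Gent+Fos OE replicates 1, 3 and 4, respectively, and stayed under 0.01 without any other library.

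Cxcl2 encodes MIP-2 and was measured at 13.2, 7.84, 10.1 and 8.84 CPM in Gent+Fos OE and at 22.55, 20.5 and 23.5 CPM in Gent. The groups did not overlap, and the Gent libraries were close together. The log2 fold change was -1.15 (SE 0.18, 95% CI -1.55 to -0.75), 2.22-fold lower, and the edgeR adjusted p of 0.0127 was just over the limit (exact permutation p = 0.0286). The call depended on the setting. DESeq2 gave an adjusted p of 3.45e-06, upper quartile normalization 0.00983, and edgeR without Gent replicate 2 0.00676.

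Cxcl1, which encodes KC, was measured at 13.8, 12.5, 15.8 and 13.1 CPM in Gent+Fos OE and at 14.55, 26.0 and 19.0 CPM in Gent. Gent replicate 1 lay within the range of the Gent+Fos OE libraries. On the log2 scale the change was -0.52 (SE 0.19, 95% CI -0.95 to -0.10), with an edgeR adjusted p of 0.152 and an exact permutation p of 0.0571. Without Gent replicate 2, the library highest in Cxcl1, it was -0.29.

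Among the ligands of CCR2, Ccl12 fell and Ccl2 and Ccl7 did not pass the test. Ccl12 (ENSMUSG00000035352, chr11:82101845-82103400, plus strand) encodes MCP-5, a mouse ligand of CCR2. Its upstream window is shown as an example that held none of the 4 motifs, and so carries no capitals (GRCm38.p6, chr11:82101595-82101844, plus strand).
Ccl12: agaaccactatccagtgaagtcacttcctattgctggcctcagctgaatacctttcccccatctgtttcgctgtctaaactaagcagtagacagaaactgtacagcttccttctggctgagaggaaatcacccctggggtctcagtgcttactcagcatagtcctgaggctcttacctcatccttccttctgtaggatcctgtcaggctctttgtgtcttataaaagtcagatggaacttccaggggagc
The table of promoters had no entry for Cxcl5, Ccl2, Ccl7 and Ccl5. The window of Cxcl12 held none of the motifs. An absent match says only that these letters are not in that window.

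Ccl12 was measured at 4.49, 4.71, 5.86 and 6.77 CPM in Gent+Fos OE and at 15.7, 17.4 and 15.5 CPM in Gent. Every Gent library was far above the highest Gent+Fos OE library. Gent+Fos OE averaged 5.46 ± 1.06 CPM (SD, n = 4), against 16.2 ± 1.01 CPM for Gent (SD, n = 3), and the log2 fold change was -1.57 (SE 0.18, 95% CI -1.97 to -1.18), 2.97-fold lower, with an edgeR adjusted p of 0.00262. The adjusted p was 0.0129, 0.0113 and 0.0168 without Gent+Fos OE replicates 1, 2 and 3, and 0.0135 without Gent replicate 3.

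Ccl2 (ENSMUSG00000035385, chr11:82035571-82037453, plus strand) encodes MCP-1, the main monocyte attractant, and was measured at 159.4, 164.0, 172.8 and 165.0 CPM in Gent+Fos OE and at 196.1, 245.6 and 238.4 CPM in Gent. The Gent+Fos OE libraries were nearly equal and all lay below the Gent libraries. The log2 fold change was -0.46 (SE 0.12, 95% CI -0.73 to -0.18), 1.37-fold lower, with an edgeR adjusted p of 0.0859 and an exact permutation p of 0.0286. Its interval does not reach those of Ccl12, Cxcl10 and Ccl5.

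Ccl7 (ENSMUSG00000035373, chr11:82045712-82047525, plus strand) encodes MCP-3 and was measured at 65.1, 51.6, 73.6 and 69.3 CPM in Gent+Fos OE and at 65.8, 105.4 and 88.7 CPM in Gent. The groups overlapped, since Gent replicate 1 lay below Gent+Fos OE replicates 3 and 4. The fitted log2 fold change was -0.42 (SE 0.18, 95% CI -0.81 to -0.03), with an edgeR adjusted p of 0.187 and an exact permutation p of 0.171. Without Gent replicate 2 it was -0.26.

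Cxcl12 (ENSMUSG00000061353, chr6:117168535-117181367, plus strand), also known as SDF-1, was measured at 311.6, 185.9, 233.3 and 338.0 CPM in Gent+Fos OE and at 721.2, 449.0 and 434.4 CPM in Gent. The groups did not overlap, but both were broad, and Gent replicate 1 was far above the other Gent libraries. Gent+Fos OE averaged 267.2 ± 70.1 CPM (SD, n = 4), against 534.8 ± 161.5 CPM for Gent (SD, n = 3). This gave a log2 fold change of -1.0 (SE 0.23, 95% CI -1.52 to -0.48), and the edgeR adjusted p of 0.0597 was over the limit. DESeq2 called the gene lower, with an adjusted p of 0.00252. Without Gent replicate 1 the log2 fold change was -0.73.

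**Figure D2:**
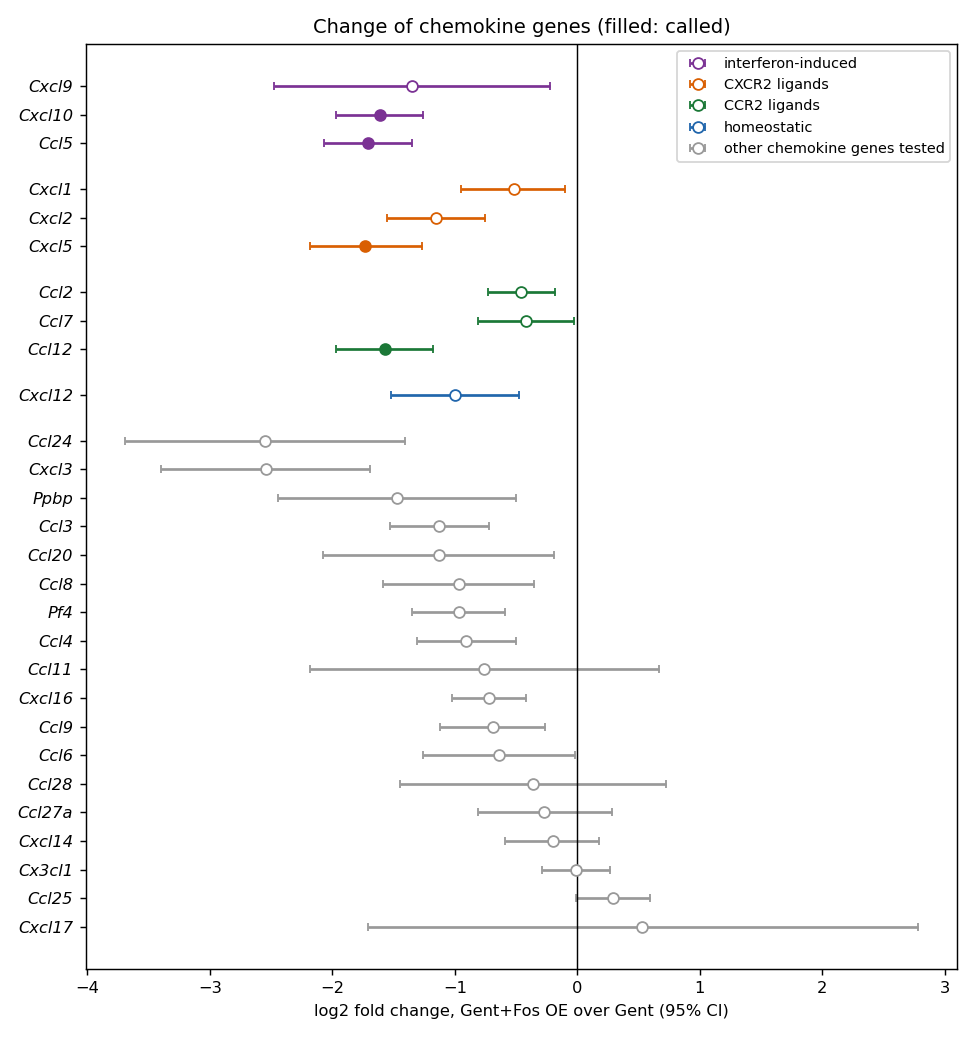
The log2 fold change of Gent+Fos OE over Gent (x axis) with its 95% confidence interval from edgeR is plotted for the 10 chemokine genes by group (colours) and for the other 18 chemokine genes tested (grey), with filled points for genes called. Cxcl10, Ccl5, Cxcl5 and Ccl12 lie between -1.73 and -1.57, and Cxcl1, Ccl2 and Ccl7 between -0.52 and -0.42.

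Set against each other, the interferon-induced genes had log2 fold changes with a median of -1.61 (-1.71 to -1.35, 2 of 3 called) and the other 7 genes a median of -1.0 (-1.73 to -0.42, 2 of 7 called), where all tested genes had a median of 0.00. The difference between the sets was not tested, since the genes of a set are not replicates. Both ranges overlap. Cxcl5 and Ccl12, which stand among the others, were at -1.73 and -1.57, beside -1.61 for Cxcl10 and -1.71 for Ccl5. CCL2, CCL7 and CCL12 can also be induced by interferon, and with these 3 counted on that side the medians were -1.46 for 6 genes and -1.07 for the remaining 4. By receptor, the median was -1.15 for the 3 CXCR2 ligands among these genes and -0.46 for the 3 CCR2 ligands. Cxcl3, a CXCR2 ligand that is not in these medians, was at -2.54.

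Ratios of reads within a library do not depend on scaling between libraries. For every 100 reads of Ccl2, the Gent+Fos OE libraries held 20.1 to 31.0 reads of Cxcl10 and the Gent libraries 52.9 to 57.6. For Ccl5 they had 7.09 to 11.1 and 19.9 to 22.6 reads per 100 reads of Ccl2. Within the CCR2 ligands, Ccl12 made 2.82 to 4.10 reads per 100 reads of Ccl2 in Gent+Fos OE, against 6.51 to 8.03 for Gent. None of these 3 ratios overlapped between the groups, but their numerators are genes called lower above. Of the 9 genes set over Ccl2, 5 did not overlap (these 3 with Cxcl2 and Cxcl5) and 4 did (Cxcl9, Cxcl1, Ccl7 and Cxcl12), Ccl7 at 31.4 to 42.6 and 33.6 to 42.9 reads per 100 reads of Ccl2. Among all tested genes, 1.06% had a lower ratio to Ccl2 and no overlap. Within the CXCR2 ligands, Cxcl5 had 86.0 to 127.8 reads per 100 reads of Cxcl1 in Gent+Fos OE, against 200 to 328.9 for Gent, without overlap (0.700% of all tested genes had a lower ratio to Cxcl1 and no overlap), whereas the ratio of Cxcl2 to Cxcl1 overlapped, at 62.9 to 95.3 and 78.9 to 155.1.

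Per length of gene, the order of the median levels in Gent, in RPKM (TMM-normalized CPM per kb of exonic length), was Ccl2 at 209.4, Ccl7 at 110.8, Cxcl10 at 56.0, Cxcl12 at 54.9, Ccl5 at 49.7, Ccl12 at 29.3, Cxcl5 at 25.7, Cxcl2 at 10.9, Cxcl1 at 10.15 and Cxcl9 at 0.477. The order of Cxcl10 and Cxcl12, of Ccl12 and Cxcl5, and of Cxcl2 and Cxcl1 is not resolved. Each pair lies closer together than the Gent libraries of Cxcl12, Cxcl5 and Cxcl1, respectively. Cxcl10 and Ccl5 are also closer together than the Gent libraries of Cxcl10. The median RPKM in Gent+Fos OE was 144.6 for Ccl2, 83.9 for Ccl7, 33.3 for Cxcl12, 17.9 for Cxcl10, 14.6 for Ccl5 and 9.84 for Ccl12. The exonic length of Cxcl12 joins all its annotated isoforms, which lowers its RPKM.

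Of the 10 genes, 9 lie in chemokine clusters. Cxcl5, Cxcl1 and Cxcl2 share 146.6 kb on chromosome 5 with 4 other chemokine genes (chr5:90759360-90905938), and all 6 tested genes of this cluster had negative log2 fold changes. Among them were Ppbp at -1.47, Pf4 at -0.97 (adjusted p = 0.0229) and Cxcl3 at -2.54. Cxcl15 had 0 counts in all 7 libraries and was not tested. Cxcl9 and Cxcl10 lie within 27.5 kb of each other further along the same chromosome. On chromosome 11, Ccl2, Ccl7 and Ccl12 share 270.1 kb with 3 other chemokine genes (chr11:82035571-82305690), where Ccl11 was at -0.76 and Ccl8 at -0.97, and Ccl1 had 0 counts in all 7 libraries and was not tested. Ccl5 shares 138.9 kb with Ccl9, Ccl6, Ccl3 and Ccl4 (chr11:83525778-83664683), at -0.69, -0.64, -1.13 and -0.91. In the cluster of Ccl2, the log2 fold changes in order along the chromosome were -0.46 (Ccl2), -0.42 (Ccl7), -0.76 (Ccl11), -1.57 (Ccl12) and -0.97 (Ccl8), and a relation to position was not tested. These genes arose by duplication and are similar in sequence, and reads that mapped to several places were left out of the counts.

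**Figure D3:**
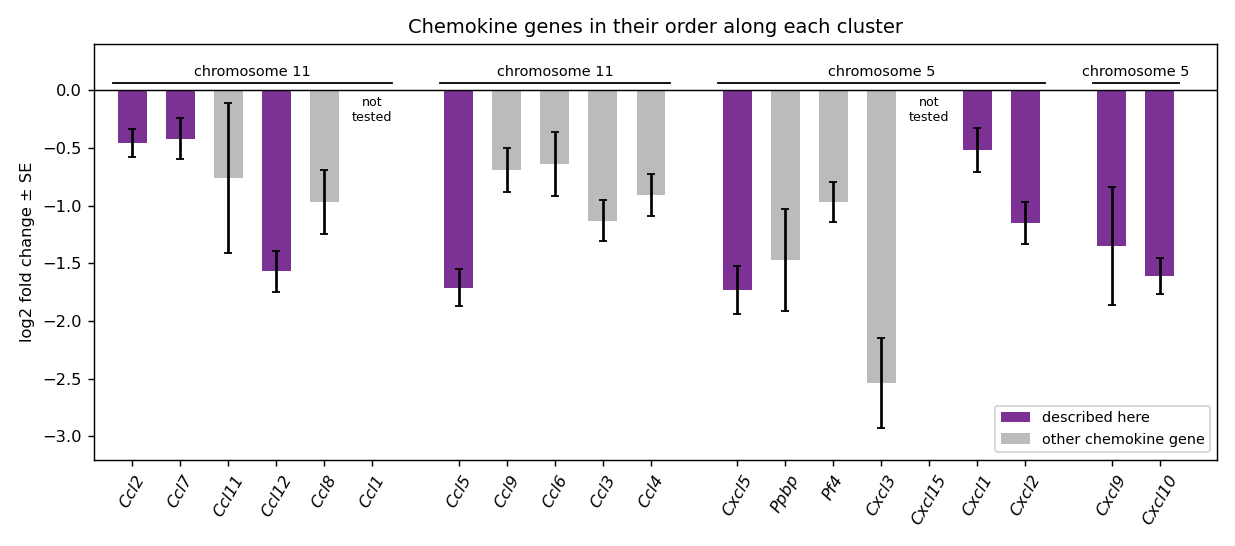
Bars give the log2 fold change of Gent+Fos OE over Gent ± SE from edgeR for chemokine genes in their order along 4 clusters on chromosomes 11 and 5, purple for the genes described here and grey for their neighbours, with untested genes marked. All bars point down, with values from -2.54 (Cxcl3) to -0.42 (Ccl7).

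Of 28 other chemokine genes listed, 27 had a row and 18 were tested. None was called by edgeR (DESeq2 called 6 lower: Cxcl3, Cxcl16, Pf4, Ccl3, Ccl4 and Ccl24), 11 had an unadjusted p under 0.05 with a lower value and 0 with a higher one, and the median log2 fold change was -0.74. The shares over all tested genes at that p were 13.4% with a lower value and 11.1% with a higher one. The genes with the smallest p were Cxcl3 and Ccl3. Cxcl3, a further CXCR2 ligand, was measured at 0.847, 1.75, 0.791 and 2.03 CPM in Gent+Fos OE and at 5.75, 5.93 and 12.0 CPM in Gent, a log2 fold change of -2.54 (SE 0.39, edgeR adjusted p = 0.0109; DESeq2 adjusted p = 5.02e-08). Ccl3, which encodes MIP-1 alpha, was measured at 53.3, 34.9, 43.5 and 62.2 CPM and at 106.5, 113.3 and 97.6 CPM, a log2 fold change of -1.13 (SE 0.18, edgeR adjusted p = 0.0135). Neither gene overlapped between the groups. Cx3cl1 and Cxcl14, made by epithelia and nerve cells among others, were at -0.01 and -0.20, and Ccl25 at 0.29.

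Receptors of these chemokines were rare or did not pass the test. CXCR2 and CCR2, the receptors of neutrophils and monocytes, were at or near 0: Cxcr2 had at most 4 counts in a Gent+Fos OE library and at most 10 in a Gent library, and Ccr2 at most 6 and 10. Ackr1, a scavenger of many inflammatory chemokines, had 0 counts in every Gent+Fos OE library and at most 4 in a Gent library. Cxcr3, the receptor of CXCL9 and CXCL10, was at 0.0651 to 0.499 CPM in Gent+Fos OE and 0.616 to 0.769 CPM in Gent, a log2 fold change of -0.99 with an SE of 0.57 (edgeR adjusted p = 0.296). Cxcr4, the signalling receptor of CXCL12, had a log2 fold change of -0.13 (SE 0.19, adjusted p = 0.683), and Ackr3, its scavenger receptor, one of -0.03 (SE 0.13, adjusted p = 0.902). Of 13 tested receptor genes, 0 were called by edgeR and 1 by DESeq2 (Ccrl2), 2 had an unadjusted p under 0.05 with a lower value (Ccrl2 at -0.82, adjusted p = 0.0547, and Ackr4 at -0.41, adjusted p = 0.181) and 1 with a higher one, and the median was -0.13. Among all tested genes, 13.4% had such a p with a lower value and 11.1% with a higher one.

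A list of interferon receptors, kinases and transcription factors, which carry the interferon signal to these chemokines, was counted next. Of 15 tested, 1 was called (4 by DESeq2), 10 had an unadjusted p under 0.05 with a lower value and 0 with a higher one, and the median log2 fold change was -0.38. At that p, 13.4% of all tested genes had a lower value and 11.1% a higher one. The called gene was Irf7, a factor that drives interferon and chemokine genes and is itself induced by interferon, at 25.3, 20.9, 19.7 and 21.2 CPM in Gent+Fos OE and 62.8, 71.9 and 77.8 CPM in Gent. Its log2 fold change was -1.70 (SE 0.14, edgeR adjusted p = 0.00056), close to those of Cxcl10 and Ccl5. Of the interferon genes, Ifng and Ifnb1 were examined. Ifng had 0 counts in all 7 libraries, which allows up to 0.0874 to 0.108 CPM per library (3 counts, counting error only), or 0.175 to 0.215 CPM if both reads of 3 fragments were counted. Ifnb1 had 4 counts in Gent+Fos OE replicate 2 and 1 and 7 counts in Gent replicates 1 and 2, and 0 in the others.

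Of 15 genes that act in NF-kappaB signalling or feed it, 1 was called (4 by DESeq2), 7 had an unadjusted p under 0.05 with a lower value and 1 with a higher one, and the median was -0.25. Il1b, the cytokine interleukin-1 beta, fell from 5.07, 7.60 and 6.59 CPM in Gent to 1.89, 1.84, 1.77 and 1.82 CPM in Gent+Fos OE, a log2 fold change of -1.81 (SE 0.22, edgeR adjusted p = 0.00316). Tnf was at 20.7, 11.2, 15.4 and 21.2 CPM in Gent+Fos OE and 38.7, 42.5 and 33.5 CPM in Gent, a log2 fold change of -1.16 (SE 0.21, adjusted p = 0.0241). Of 6 factors that bind or destabilise chemokine mRNA, edgeR and DESeq2 both called 0, and 2 had an unadjusted p under 0.05 with a lower and 1 with a higher value. For these lists too, the shares over all tested genes were 13.4% with a lower value and 11.1% with a higher one. Zc3h12a (regnase-1) was at -0.55 (SE 0.14, adjusted p = 0.0745) and Rc3h1 (roquin-1) at 0.53 (SE 0.20, adjusted p = 0.156).

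Macrophages are a common source of several of these chemokines, though not of all. Of 12 macrophage markers tested, 2 were called lower (Cd14 at -1.15, adjusted p = 0.00847, and Fcgr1 at -1.25, adjusted p = 0.00771; DESeq2 called 7), 11 had a negative log2 fold change, and the median was -0.73. Mrc1, a marker of resident macrophages, was at 0.05 (adjusted p = 0.921) and Mpeg1 at -0.32 (adjusted p = 0.317), both with overlap. The summed markers ran from 3323 to 5107 CPM in Gent+Fos OE and from 5440 to 7417 CPM in Gent. Set over this sum, 4 of the 10 chemokine genes were lower in Gent+Fos OE without overlap, against 0.711% of all tested genes. Lyz2 made up 58.2% to 64.1% of the sum, and without it Cxcl2 also did not overlap, making 5 of the 10 against 0.752%. Per 1000 CPM of macrophage markers, Cxcl10 was at 6.49 to 15.3 CPM in Gent+Fos OE against 16.8 to 23.2 CPM for Gent, and Ccl5 was at 2.42 to 4.22 and 6.58 to 8.77. Cxcl5 was at 2.55 to 4.61 and 7.0 to 7.99, and Ccl12 at 1.03 to 1.58 and 2.34 to 2.85. The log2 differences of these 4 lay between -1.08 and -0.93, whereas those of Ccl2, Ccl7 and Cxcl1 were 0.21, 0.25 and 0.17, with overlap. This ratio was added after the data were seen and was not tested.

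Markers of neutrophils and of T and NK cells, which these chemokines attract, were low. Of 8 neutrophil markers, 3 were tested, and the sum was 4.81 to 6.49 CPM in Gent+Fos OE and 9.10 to 20.2 CPM in Gent. Csf3r made up most of it in every library (3.13 to 5.56 CPM in Gent+Fos OE and 5.49 to 10.99 CPM in Gent). Ly6g had at most 2 counts in a library, so the sum is no measure of neutrophils. The 3 tested markers each overlapped between the groups, and 2 had an unadjusted p under 0.05 with a lower value. Of 8 T and NK cell markers, 3 were tested, and the sum was 14.9 to 31.3 CPM and 24.4 to 33.3 CPM, with Nkg7 at 0 counts in all 7 libraries. Cd4 made up most of this sum in every library (12.2 to 31.6 CPM), and Cd3d had at most 2 counts, so the sum is no measure of T cells. Mesenchyme markers, of the cells that commonly make Cxcl12, summed to 6790 to 10230 CPM and 8500 to 12260 CPM, with a median of -0.35 on the log2 scale, 0 of 8 called by edgeR or DESeq2, and 2 with an unadjusted p under 0.05. These 2 had lower values, as did 13.4% of all tested genes at that p. Melanocyte markers were also lower (45.7 to 50.9 CPM against 87.6 to 124.0 CPM, 2 of 6 called lower by edgeR, Dct at -1.40 and Tyrp1 at -1.87, 5 of 6 by DESeq2, and 5 of 6 without overlap), and the sum of supporting cell markers was 2658 to 3488 CPM against 1959 to 2277 CPM. Of these 7, Otog was called higher at 1.25 (mean 1065 against 447.4 CPM), 6 did not pass, and the median was 0.24. The sums of endothelial, Schwann cell and hair cell markers overlapped between the groups. The part of these cells in the chemokine values was not tested.

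The profiles of the 10 genes over the 7 libraries were compared by Pearson's r of log2 CPM, given as a description because the libraries share the group difference. Ccl5 was most like Cxcl2 and Cxcl5 among the 10 (r = 0.98 for both), Cxcl1 and Ccl7 followed each other (r = 0.94), and Cxcl1 and Cxcl12 were least alike (r = 0.40). Of 14838 genes whose mean reached 1 CPM, those most like Cxcl10 were Mcm5, Ptgs1 and Cdca5 (r = 0.99, 0.989 and 0.987). For Ccl5 they were Cd69, Slc2a6 and Zbp1 (0.991, 0.99 and 0.989), and for Cxcl5 Psmb8, Slc2a6 and Acod1 (0.993, 0.985 and 0.984). For Ccl12 they were Prelid3b, Epsti1 and Pmp22 (0.989, 0.989 and 0.987), and for Cxcl2 Tmem185a, Aunip and Ccl5 (0.985, 0.984 and 0.982). For Cxcl1 they were 4933434E20Rik, Ttc29 and Cbr1 (0.993, 0.993 and 0.991), for Cxcl9 Il18bp, Zfp689 and Ciart (0.953, 0.942 and 0.938), and for Ccl2 Ciapin1, G6pdx and Sdhc (0.989, 0.988 and 0.985). For Ccl7 they were Hilpda, Mmgt2 and Nol7 (0.992, 0.992 and 0.985), and for Cxcl12 Serpinb9, Lilrb4a and Ehbp1l1 (0.995, 0.99 and 0.988). Cxcl9 thus had the weakest likeness of the 10, and it also had the lowest counts.

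Under 17 alternative analyses (other models, scalings and filters, a length correction, a replicate block, and leaving out each library), all 170 log2 fold changes of the 10 genes were negative. Which of them were called did vary. Cxcl10 and Ccl5 were called under 15 of the 17, Cxcl5 and Ccl12 under 12, Cxcl2 under 5, Cxcl12 under 2, and Cxcl9, Cxcl1, Ccl2 and Ccl7 under 0. With the length correction alone, the same 4 genes as in the main analysis were called. Leaving out Gent+Fos OE replicate 3 left 0 of the 10 called, with 5 genes called in all, while the log2 fold changes of Cxcl10, Ccl5, Cxcl5 and Ccl12 were -1.58, -1.76, -1.81 and -1.61.

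**Figure D4:**
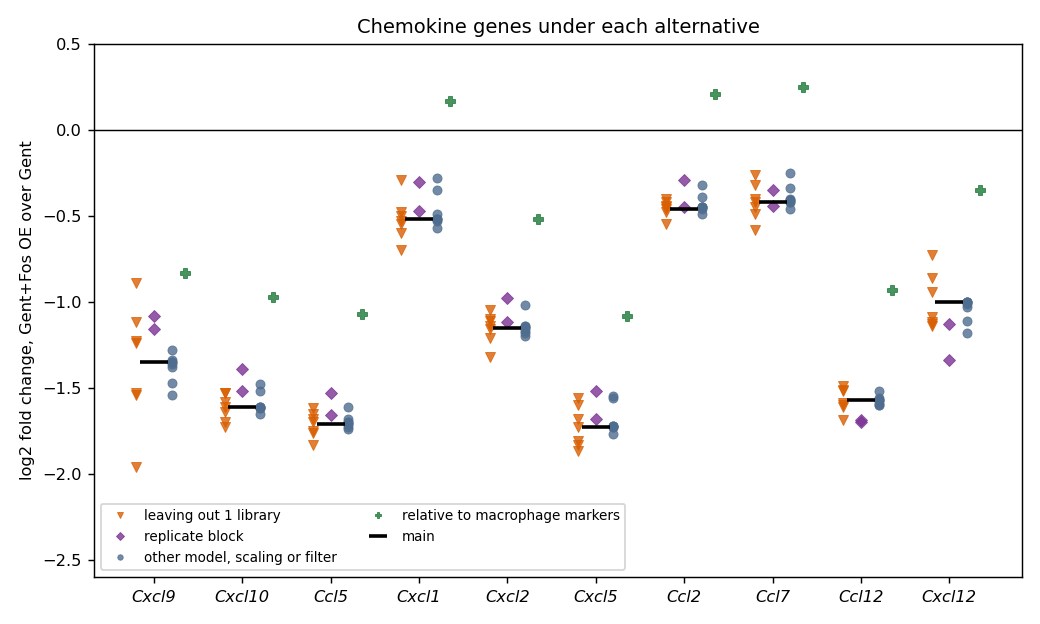
The log2 fold change of each chemokine gene in the main analysis (black bar) is plotted with its values when 1 library is left out (triangles), with a replicate block (diamonds) and under other models, scalings or filters (circles), all of which are negative. Values relative to the summed macrophage markers (crosses) are positive for Cxcl1, Ccl2 and Ccl7 at 0.17, 0.21 and 0.25, and negative for the other 7.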

How the data were processed

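The authors deposited whole-number read counts per gene for each library, without normalization. Per the file headers, featureCounts 2.0.6 counted both reads of a pair separately over mm10 gene models, without strand and without multi-mapping or multi-overlapping reads. The submitters' processing notes name Trim Galore 0.6.10, HISAT2 2.2.1 and DESeq2 1.34.0, and the methods name mm39, which differs from the headers. Coordinates are those of the files (mm10). Symbols were given to 24523 genes whose place carries 1 symbol in GENCODE vM39 and RefSeq. Counts of replicates differed beyond counting error (chi-square per degree of freedom 16.8 to 139.1 between pairs), so precision rests on the spread between pools of utricles.

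The main test was edgeR 4.0.16 in R 4.3.3 (filterByExpr, TMM, quasi-likelihood F-test without covariates, Benjamini-Hochberg adjustment over 17155 genes). DESeq2 1.42.0 (genes with at least 10 counts in total) and limma 3.58.1 were alternatives, with normalization by RLE or upper quartile, the filter dropped or raised to 10 counts in every library, a length correction (loess span 0.3), a replicate block and leaving out each library. Single genes were also tested by exact permutation over 35 splits. The scripts were tested on simulated data.

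The 10 genes and the lists were chosen with earlier results of these data known. The text names the 10, the receptors they bind, every called list gene, the 2 smallest p of each pathway list, the 3 genes most like each of the 10, and Fos. Other genes named were chosen after their values were seen. A few genes that the rule names are not reported here. Promoter windows are from RefSeq (GRCm38.p6), which matched 6 of the 10. Replicate numbers did not pair the samples. Protein sequences were not used here.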

Additional observations from a re-analysis of the deposited data

Results flagged for a closer look

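Fos in Gent+Fos OE replicate 3 was measured at 167 CPM, and the nearest other library of that group was at 151.1 CPM. The gap was 0.873 of the range of the 4 libraries, more than Dixon's limit for 4 samples, among 11 genes looked at (the 10 chemokine genes and Fos). Such a gap arises in about 1 of 20 groups by chance. None of the 10 chemokine genes was singled out in this way in Gent+Fos OE, and the Gent group of 3 was too small for this check.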

How the results depend on the processing

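Against 4 chemokine genes and 71 genes in all called by edgeR, the replicate block called 0 and 0. With the block and the length correction, 4 of the 10 (Cxcl10, Ccl5, Ccl12 and Cxcl12) and 48 in all were called, and the median of the interferon-induced genes was -1.39. Same-numbered libraries did not deviate together (r = 0.0643, -0.0380 and 0.0317), and not every library correlated best with its own number, so the numbers are taken as names only. Gent+Fos OE replicate 4 has no partner in the block.

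Other settings moved the number of all genes called to 600 (273 higher, 327 lower) with DESeq2, 646 with DESeq2 without Gent replicate 2, 204 without a filter and 130 with the length correction. With 1 library left out, 0 to 5 of the 10 and 5 to 138 genes in all were called (the lowest without Gent+Fos OE replicate 3, the highest without Gent replicate 2). The median of the interferon-induced genes ran from -1.83 to -1.53, and that of the others from -1.12 to -0.73. It was -1.46 with Ccl2, Ccl7 and Ccl12 counted as interferon-induced. Relative to summed macrophage markers, a ratio added after the data were seen, the medians were -0.97 and -0.35, and Cxcl1, Ccl2 and Ccl7 turned to 0.17, 0.21 and 0.25 (0.16, 0.2 and 0.25 without Lyz2, with the same medians). The cause of these shifts was not tested.

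Of the 170 values under the 17 settings, 149 kept their direction and their side of the limit, 14 lost the call, 7 gained it and 0 reversed. The median of all genes moved by -0.04 to 0.05. Cxcl9 had the fewest counts (10 to 105) and the widest range with 1 library left out (-1.96 to -0.89).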
